A study of Mus musculus with 9 samples.

Results

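The 10 genes described here mark microglia, the resident macrophages of the brain: C1qa, C1qb, C1qc, Csf1r, Cx3cr1, P2ry12, Tyrobp, Aif1, Trem2 and Tmem119. They were taken by symbol from a table of read counts for 55401 genes in bulk embryonic forebrain, and all 10 had enough reads to be tested among 17818 genes. Forebrain was taken from female embryos at embryonic day 16 to 17 (E16 to E17), 5 of them wild-type (WT, Npas3+/+) and 4 heterozygous for a deletion of Npas3 (HET, Npas3+/-). All embryos were on the C57BL/6J background, and the WT embryos were littermates from crosses of HET mice with HET or C57BL/6J mice. The deletion was carried by every cell of the HET embryos, microglia, neurons and vessels alike, so the design does not assign an effect to a cell type. Npas3 encodes a transcription factor of the basic helix-loop-helix PAS family, and the comparison asks whether the loss of 1 copy goes with a change of the microglial transcripts.

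Microglia descend from yolk sac progenitors that enter the brain in the embryo, before the blood-brain barrier closes, and then divide and spread through the tissue. They depend on signalling through the receptor Csf1r, watch their surroundings with motile processes, and clear dying cells and some synapses, in part by tagging them with complement. They are a small minority of the cells at this stage, and the members ranged from under 1 to about 20 CPM here. In bulk tissue, fewer microglia and less RNA per microglial cell cannot be told apart.

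The libraries held between 42640218 and 62830060 counts. Expression is given as CPM, a gene's counts relative to a fixed library total, with library sizes scaled by the trimmed mean of M-values (TMM), and 3 counts corresponded to 0.0473 to 0.0722 CPM. Npas3 itself was 36.2 ± 4.18 CPM in WT (SD, n = 5) and 29.5 ± 3.09 in HET (n = 4), with ranges that overlapped (29.7 to 40.8 against 27.8 to 34.1) and a log2 fold change (HET minus WT) of -0.30 (SE 0.10; edgeR adjusted p = 0.877). The libraries stood apart in choroid plexus RNA: Ttr, the transthyretin gene of that epithelium, ran from 2127 to 2631 CPM over WT embryos 15, 16 and 41, was 467 in HET embryo 24, and lay between 0.770 and 11.7 in the others. The labels name the cell type as astrocytes, but neuronal genes were at a summed 5007 to 6004 CPM. The 7 genes of astrocytes and radial glia summed to 1041 to 1150 CPM in WT and 667 to 832 in HET. Of these 7, the astrocyte water channel gene Aqp4 was at a mean of 1.48 CPM in WT and 0.475 in HET. The samples are described here as forebrain tissue, as in the methods of the study.

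No difference between HET and WT embryos passed the test for any of the 10 microglial genes. In the quasi-likelihood fit of edgeR, with p-values adjusted after Benjamini and Hochberg over all tested genes, 0 of 10 were called at an adjusted p under 0.05, against 25 of 17818 tested genes (0.140%), and the smallest adjusted p among the members was 0.911. At an unadjusted p under 0.05 the count was also 0 of 10, against 5.42% of all tested genes, and both DESeq2 and limma-voom called 0 members. Of the 10 estimates, 7 lay above 0 (48.5% of all tested genes did), and the members had a median log2 fold change of 0.06, beside -0.005 over all tested genes. The HET and WT ranges overlapped for every member, whereas they did not for 1.85% of tested genes. The log2 fold changes ran from -0.37 for Trem2 to 0.24 for Cx3cr1.

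**Figure D1:**
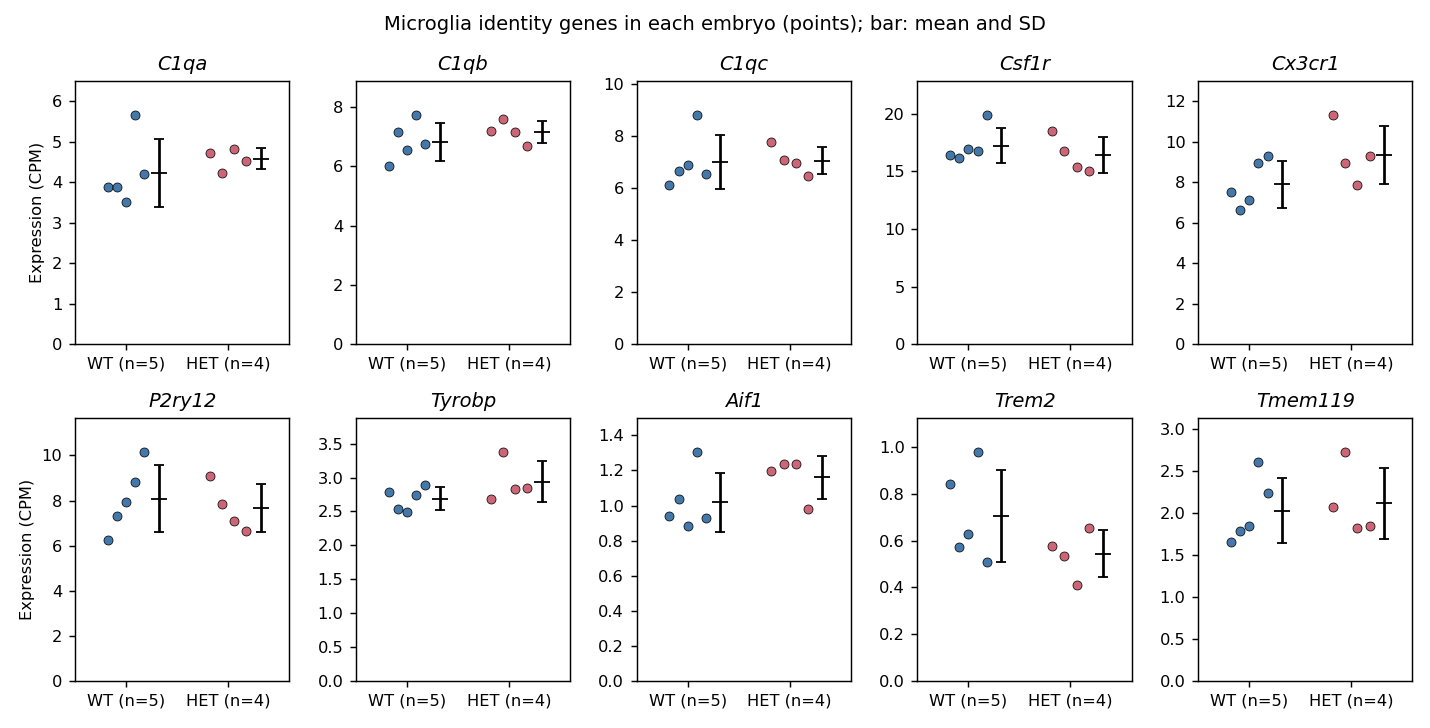
CPM (linear axis from 0) of each of the 10 microglial genes in every embryo, with WT and HET embryos as separate points and the group mean and SD drawn beside them. In each panel the HET and WT points overlap, for example 0.411 to 0.653 CPM in HET against 0.509 to 0.979 in WT for Trem2.

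The 3 chains of complement C1q, the recognition protein that starts the classical complement cascade, are coded by neighbouring genes on chromosome 4 of GRCm38, all on the minus strand: C1qb (ENSMUSG00000036905) at chr4:136880129-136886187, C1qc (ENSMUSG00000036896) at chr4:136889804-136893065 and C1qa (ENSMUSG00000036887) at chr4:136895917-136898803. C1qa was at 3.90, 3.89, 3.51, 5.65 and 4.20 CPM in WT embryos 5, 43, 41, 16 and 15, and at 4.73, 4.24, 4.83 and 4.53 in HET embryos 7, 6, 5 and 24. WT embryo 16 was the highest of all 9, and the HET embryos lay between it and the other WT embryos. The C1qa log2 fold change was 0.12 (SE 0.15; 95% confidence interval -0.21 to 0.44; edgeR adjusted p = 0.933), which places the HET level between 86.7% and 136% of the WT level. Leaving out 1 embryo moved it to between 0.05 (without WT embryo 41) and 0.24 (without WT embryo 16, edgeR adjusted p = 0.979, unadjusted p = 0.0541). C1qb was at 6.01, 7.15, 6.54, 7.72 and 6.75 CPM in the WT embryos in the same order, and at 7.19, 7.59, 7.14 and 6.70 in the HET embryos. The HET values all lay inside the WT range, and the log2 fold change was 0.07 (SE 0.10; interval -0.16 to 0.29; edgeR adjusted p = 0.940). C1qc was at 6.11, 6.67, 6.87, 8.79 and 6.55 CPM in WT and at 7.75, 7.06, 6.95 and 6.45 in HET. WT embryo 16 again stood highest, and the group means were 6.996 ± 1.04 (SD, n = 5) and 7.05 ± 0.535 (n = 4), a log2 fold change of 0.01 (SE 0.12; interval -0.26 to 0.28; edgeR adjusted p = 0.992).

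C1qb and C1qc lie next to each other in one orientation and had correlated levels over the embryos, so the 250 bases before each gene's RefSeq start are shown, on GRCm38.p6 and written 5′ to 3′ on the minus strand, C1qb from chr4:136886201-136886450 and C1qc from chr4:136892915-136893164. Capitals mark GAGGAA on either strand (TTCCTC when on the other), the core read by the ETS factor coded by Spi1 in macrophages.
C1qb: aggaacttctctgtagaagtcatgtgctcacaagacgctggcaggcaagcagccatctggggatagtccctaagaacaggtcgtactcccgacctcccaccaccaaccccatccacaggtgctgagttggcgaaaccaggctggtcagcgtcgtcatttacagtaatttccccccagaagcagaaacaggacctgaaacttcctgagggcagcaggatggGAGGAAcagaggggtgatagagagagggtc
C1qc: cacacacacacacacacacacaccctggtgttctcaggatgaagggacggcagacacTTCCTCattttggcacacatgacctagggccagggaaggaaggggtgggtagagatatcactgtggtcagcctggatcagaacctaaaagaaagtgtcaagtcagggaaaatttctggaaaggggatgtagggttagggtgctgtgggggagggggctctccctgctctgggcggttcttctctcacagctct
Each window held 1 match, near its 3′ end in C1qb and on the opposite strand in C1qc. The promoter table held 6 of the 10 members (C1qb, C1qc, Cx3cr1, P2ry12, Aif1 and Trem2); 4 of these 6 windows had GAGGAA on either strand, against 23.3% of all 32851 promoter windows of that length. The E-box CANNTG, the general motif of basic helix-loop-helix factors, was in 6 of 6 member windows and in 66.2% of all windows. The RefSeq starts are not those of the gene spans given here, which are from GENCODE: 151 of the 250 bases of the C1qc window, all 250 of the Cx3cr1 window and 16 of the Aif1 window lie inside the GENCODE span of the gene, and the other windows lie outside it. These matches describe the letters in the windows and are no evidence of binding.

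Csf1r (ENSMUSG00000024621; chr18:61100598-61132149, plus strand), the receptor for colony stimulating factor 1 and interleukin 34 on which microglia depend for survival, was the member with the most reads, 684 to 1076 per embryo. It was at 16.5, 16.2, 17.0, 16.8 and 19.9 CPM in WT embryos 5, 43, 41, 16 and 15, and at 18.5, 16.8, 15.4 and 15.03 in HET embryos 7, 6, 5 and 24. WT embryo 15 was the highest and HET embryos 5 and 24 the lowest, and the log2 fold change was -0.07 (SE 0.09; 95% confidence interval -0.28 to 0.14; edgeR adjusted p = 0.935). On the linear scale the interval ran from 82.6% to 110% of the WT level. Of the exonic bases of Csf1r, 15.1% are overlapped by Hmgxb3 on the opposite strand, and since the strand setting of the counting is not given in the sources used here, its level is uncertain by the reads of that stretch.

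Cx3cr1 (ENSMUSG00000052336; chr9:119901616-120069879, minus strand), the receptor through which microglia read the neuronal chemokine fractalkine, had the highest estimate of the 10 with all embryos in the fit. It was at 7.50, 6.62, 7.12, 8.94 and 9.31 CPM in WT embryos 5, 43, 41, 16 and 15, and at 11.3, 8.97, 7.86 and 9.29 in HET embryos 7, 6, 5 and 24. All 4 HET embryos lay above the WT median, yet 3 of them lay inside the WT range. Every HET embryo was above the WT median also for C1qa and Aif1, and for 12.7% of all tested genes. The means were 7.90 ± 1.17 (SD, n = 5) and 9.36 ± 1.44 (n = 4), and the log2 fold change of 0.24 (SE 0.14; interval -0.06 to 0.55) had an edgeR adjusted p of 0.911 and an unadjusted p of 0.106. With a covariate for the choroid plexus genes in the fit the difference was 0.33 (edgeR adjusted p = 0.898, unadjusted p = 0.0405). Over the fits that left out 1 embryo it ran from 0.14 without HET embryo 7 (edgeR adjusted p = 0.999, unadjusted p = 0.343) to 0.32 without HET embryo 5 (edgeR adjusted p = 0.681, unadjusted p = 0.0495), and in the first of these Aif1 (0.17) and Tyrobp (0.17) had higher estimates.

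P2ry12 (ENSMUSG00000036353; chr3:59216272-59262871, minus strand), the ADP receptor that steers microglial processes towards injury, was at 6.23, 7.33, 7.93, 8.81 and 10.2 CPM in the WT embryos and at 9.09, 7.85, 7.08 and 6.66 in the HET embryos, in the same orders. The lowest and the highest value both came from WT embryos, so the HET values lay within the WT range. Its log2 fold change was -0.08 (SE 0.15; interval -0.41 to 0.26; edgeR adjusted p = 0.944), and its sign turned when the libraries rich in choroid plexus RNA were left out (0.24) or their choroid plexus level entered the fit as a covariate (0.05).

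Trem2 (ENSMUSG00000023992; chr17:48346401-48354147, plus strand), a lipid-sensing receptor, signals through the adaptor coded by Tyrobp (ENSMUSG00000030579; chr7:30413760-30417585, plus strand), also called DAP12. Trem2 had the fewest reads of the members, 19 to 45 per embryo, and was at 0.842, 0.574, 0.630, 0.979 and 0.509 CPM in WT embryos 5, 43, 41, 16 and 15, and at 0.579, 0.536, 0.411 and 0.653 in HET embryos 7, 6, 5 and 24. Of the HET embryos, 1 lay above the WT median and the ranges overlapped. The log2 fold change was -0.37 (SE 0.24; interval -0.89 to 0.16; edgeR adjusted p = 0.911), the widest interval of the 10, and it left room for a HET level from 53.8% to 112% of WT. Tyrobp was at 2.79, 2.54, 2.49, 2.74 and 2.90 CPM in WT and at 2.69, 3.38, 2.84 and 2.84 in HET. HET embryo 6 was the highest of the 9 and the other HET embryos lay inside the WT range. Its log2 fold change was 0.13 (SE 0.12; interval -0.14 to 0.39; edgeR adjusted p = 0.913), so the estimates for the receptor and its adaptor had opposite signs and neither passed the test.

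Aif1 (ENSMUSG00000024397; chr17:35170991-35176068, minus strand) codes for the actin-binding protein Iba1, the usual stain for microglia. It was at 0.938, 1.04, 0.882, 1.30 and 0.929 CPM in WT and at 1.20, 1.23, 1.23 and 0.979 in HET, 39 to 60 reads per embryo. All 4 HET embryos were above the WT median of 0.938, which held for 12.7% of all tested genes, and WT embryo 16 was the highest. The Aif1 log2 fold change was 0.19 (SE 0.17; interval -0.18 to 0.56; edgeR adjusted p = 0.912). Tmem119 (ENSMUSG00000054675; chr5:113793729-113800516, minus strand) codes for a membrane protein used to tell microglia from other macrophages, and its expression comes up as microglia mature. It was at 1.66, 1.79, 1.84, 2.61 and 2.23 CPM in WT and at 2.07, 2.72, 1.82 and 1.84 in HET. Both groups spanned nearly the same range, and the log2 fold change was 0.06 (SE 0.18; interval -0.34 to 0.46; edgeR adjusted p = 0.968).

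**Figure D2:**
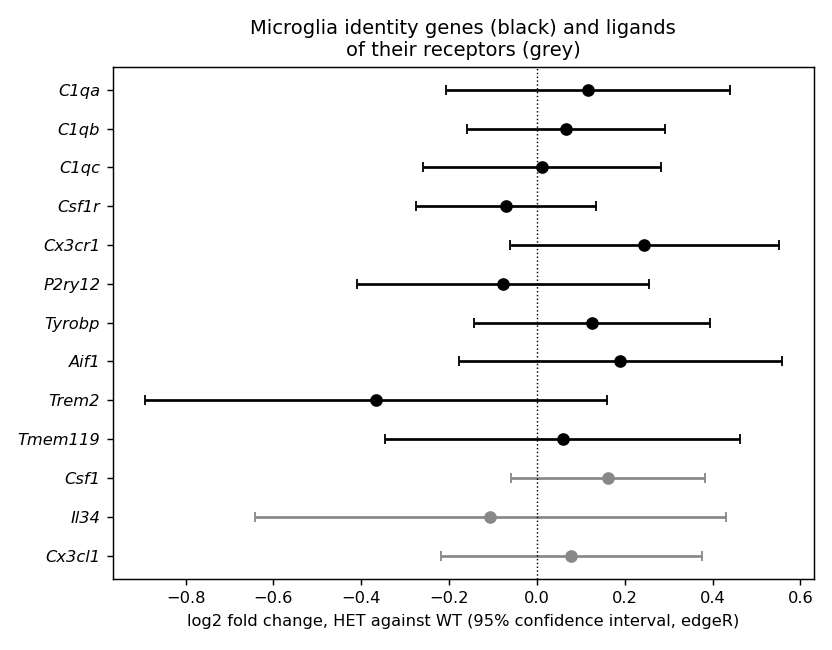
log2 fold change (HET minus WT, horizontal axis) from the edgeR fit of each microglial gene (black) and of Csf1, Il34 and Cx3cl1, the ligands of the receptors (grey), as a point with its 95% confidence interval. The intervals of all 10 members cross 0, from -0.89 to 0.16 for Trem2 to -0.06 to 0.55 for Cx3cr1.

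Per kilobase of exon, the members spanned a wide range of levels, and only some neighbours in that order were separate. C1qb was highest, at a mean of 6.41 CPM per kb, followed by C1qa at 4.22, Tyrobp at 4.20, C1qc at 3.64, P2ry12 at 3.10, Csf1r at 2.92, Cx3cr1 at 1.90, Tmem119 at 0.892, Aif1 at 0.706 and Trem2 at 0.128. C1qb lay above C1qa, Csf1r above Cx3cr1, Cx3cr1 above Tmem119 and Aif1 above Trem2 in 9 of 9 embryos, with ranges that did not overlap. C1qa and Tyrobp could not be ordered, C1qa being the higher in 4 of 9 embryos. The other neighbours kept their order in 8 of 9 embryos with overlapping ranges. These levels use the length of all annotated exons of a gene joined, 4946 bases for Trem2 and 667 for Tyrobp, so a gene with long exons that are seldom used is set too low.

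The coefficient of variation (CV) over the 9 embryos had a median of 14.7% among the members, from 7.66% for C1qb to 27.5% for Trem2, beside a median of 12.8% over all tested genes. It was above the CV that counting of reads alone would give for 10 of 10 members and for 94.4% of all tested genes, so this does not set the members apart. The CV was close to that of counting for Aif1 (14.8% against 14.1%) and Tyrobp (9.16% against 8.70%), but for Tyrobp it was 5.39% without HET embryo 6. Among the receptors, Cx3cr1 had a CV of 16.7% against 5.03%, P2ry12 of 15.9% against 5.24% and Csf1r of 8.81% against 3.55%. The ratio of the highest to the lowest embryo was 1.28 for C1qb and 2.38 for Trem2.

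**Figure D3:**
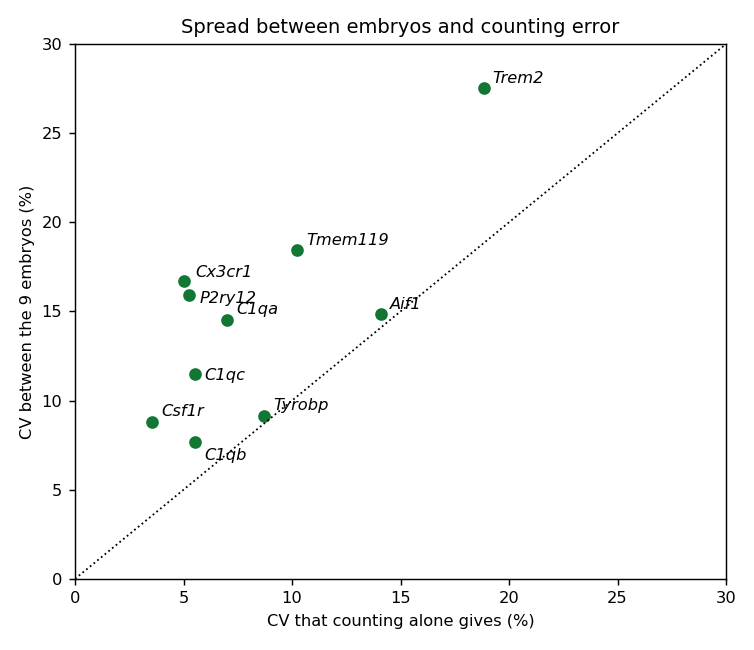
CV over the 9 embryos (%, vertical axis) of each microglial gene against the CV expected from counting alone (%, horizontal axis), with a line where both are equal. Tyrobp and Aif1 lie close to the line, and Cx3cr1, P2ry12 and C1qa lie well above it.

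When each member's log2 CPM was centred on its mean over the embryos and the 10 were averaged, WT embryo 16 was the highest at 0.23, followed by HET embryo 7 at 0.11, HET embryo 6 at 0.09 and WT embryo 15 at 0.03. HET embryos 24 and 5 were at -0.05 and -0.07, and WT embryos 5, 43 and 41 were at -0.11, -0.11 and -0.12. The WT mean was -0.02 (SD 0.15, n = 5) and the HET mean 0.02 (SD 0.09, n = 4), so the HET embryos lay inside the range of the WT embryos, and the difference of 0.04 became 0.10 without WT embryo 16. The summed CPM of the 10 members was 52.4 to 64.3 in WT and 55.0 to 65.1 in HET. WT embryo 16 was the highest of the 9 embryos for 5 members and above the mean of the other WT embryos for 9 of 10, the exception being Csf1r (-0.05). Its deviations from that mean had a median of 0.33 over the members and -0.004 over all tested genes. In that library the deviation of a gene correlated negatively with its exonic length (Spearman rho -0.355, computed across 17804 genes that are not independent), and the part of this in the members' values was not tested.

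**Figure D4:**
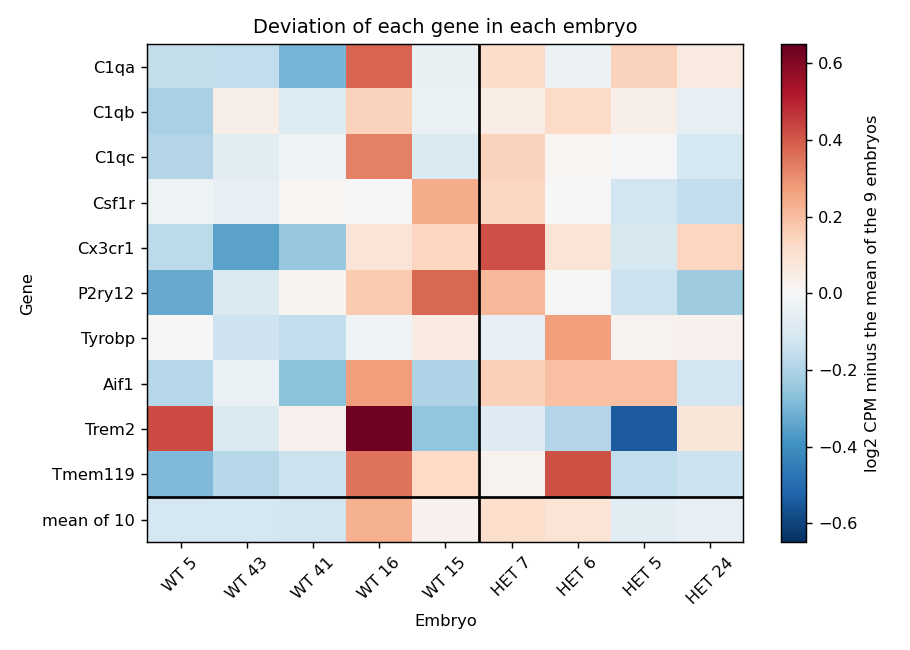
Deviation of each microglial gene (rows) from its own mean over the 9 embryos (columns, WT then HET), in log2 CPM as colour, with the mean of the 10 as the bottom row. WT embryo 16 is above the mean for most genes, with an average of 0.23 over the 10, and no colour sets the HET columns apart from the WT columns.

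Over the 9 embryos, 36 of the 45 pairs of members had a positive Pearson correlation of log2 CPM, with a median r of 0.379. The C1q chains were correlated, with r = 0.638 for C1qa and C1qb, 0.736 for C1qa and C1qc and 0.773 for C1qb and C1qc. The highest values were those of Csf1r with P2ry12 (0.851) and C1qb with Aif1 (0.851), and the lowest that of Tyrobp with Trem2 (-0.224), the adaptor and its receptor. After the group means were subtracted 42 pairs were positive, with a median of 0.394. Without WT embryo 16, 34 pairs were positive with a median of 0.394, but r for C1qa was 0.466 with C1qb and 0.421 with C1qc and the lowest, C1qb with Trem2, was -0.731, whereas Csf1r with P2ry12 stayed high at 0.893. These values rest on 9 libraries whose depth and composition all pairs share, and they are given as a description.

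Among 14363 tested genes with a mean of at least 1 CPM, the 10 whose pattern over the embryos was most like the mean of the members were Pim2 (r = 0.940), Thap1, Ndufb4, Ccdc28b, 4930522L14Rik, Uchl3, Dnajb6, Ap1s1, Zcchc17 and Ift57 (0.857). With the group means subtracted they were Mff (0.953), Thap1, Pim2, Fbxl15, Ccdc28b, Ndufb4, Clta, Dnajb6, 4930522L14Rik and Tmem50a (0.891). None of these is in the lists of microglial or macrophage genes used here. The 32 other microglia and macrophage genes above that level had a median r of 0.258 with the mean of the members, 25 of them positive, beside a median of -0.001 over all 14363 genes. Lair1, which codes for an inhibitory collagen receptor of leukocytes, was the lowest of the 32 at -0.547.

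No ligand of the member receptors passed the test. Csf1, which codes for a ligand of Csf1r, was at 12.7 ± 1.152 CPM in WT (SD, n = 5) and 14.2 ± 1.37 in HET (n = 4), a log2 fold change of 0.16 (SE 0.10; edgeR adjusted p = 0.911). Il34, the ligand that neurons supply, was at 0.713 ± 0.215 and 0.664 ± 0.098 CPM (-0.11, SE 0.24; edgeR adjusted p = 0.951). Cx3cl1, which codes for fractalkine, was at 15.8 ± 1.96 and 16.7 ± 3.18 CPM (0.08; edgeR adjusted p = 0.941). Of the 22 ligands, complement components and signalling partners in this list, 16 were tested and 0 were called by edgeR. The median log2 fold change was 0.04 over those tested. An unadjusted p under 0.05 by edgeR was found for 2 of the 16, beside 5.42% of all tested genes. These were Clu, lower in HET (0.0397), and Cd47, higher in HET (0.0109) and named here after its value was seen. DESeq2 gave 3 such genes in this list and limma-voom 1. The estimates of the 16 tested genes ranged from -0.55 for Clu, which codes for the secreted chaperone clusterin, to 0.39 for C3, the central complement component. The untested genes were C1ra, C1s1, C1rb, C2, C4b and C5ar1. Of the 4 genes for the proteases that act with C1q (C1ra, C1rb, C1s1 and C1s2), only C1s2 was tested, at 0.425 ± 0.147 CPM in WT and 0.484 ± 0.0431 in HET (edgeR adjusted p = 0.937). Tgfbr1, a receptor for the cytokine that microglia need to mature, was the most abundant of the list at 152.5 and 151.4 CPM.

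The transcription factors that specify the lineage were also without a call. Spi1 was at 1.02 ± 0.217 CPM in WT (SD, n = 5) and 0.973 ± 0.109 in HET (n = 4), with an edgeR adjusted p of 0.961. Irf8, its partner, was at 1.91 ± 0.256 and 2.03 ± 0.245 CPM (edgeR adjusted p = 0.940), and Runx1, needed by the yolk sac progenitors, at 0.530 ± 0.125 and 0.594 ± 0.0950 (edgeR adjusted p = 0.935). Sall1, which keeps microglial identity but is also expressed by neural progenitors, was far higher, at 94.5 ± 26.0 and 103.8 ± 22.3 CPM (edgeR adjusted p = 0.939).

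In the wider list of 40 other microglia and macrophage genes, 39 were tested and 0 were called by edgeR, DESeq2 or limma-voom, with 21 estimates above 0, 18 below and a median log2 fold change of 0.01. The range was from -0.68 for Ltc4s, a leukotriene synthase gene, to 0.38 for Fcrls, a Fc receptor-like gene typical of microglia, which was at 7.09 ± 1.73 CPM in WT and 9.20 ± 1.33 in HET (edgeR adjusted p = 0.911, unadjusted p = 0.053). By edgeR an unadjusted p under 0.05 was found for 2 of the 39 genes, Hpgds and Entpd1, beside 5.42% of all tested genes. DESeq2 and limma-voom each gave 3 such genes in this list. Fcrls, higher in HET, was among them, with an unadjusted p of 0.0330 by DESeq2 and 0.0345 by limma-voom. Hpgds and Entpd1 are named here after their values were seen. Hpgds, which codes for a prostaglandin D synthase, was at 3.48 ± 0.393 CPM in WT and 2.47 ± 0.281 in HET, with groups that did not overlap and a log2 fold change of -0.50 (SE 0.14; edgeR adjusted p = 0.558). Entpd1, the ectonucleotidase CD39, had a log2 fold change of -0.35 (edgeR adjusted p = 0.911).

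Among 14 genes of activated or tract-associated microglia, the call depended on the tool. With edgeR, 7 were tested and 0 were called, 1 of them with an unadjusted p under 0.05, with a median log2 fold change of 0.05 and estimates from -1.49 for Igf1 (edgeR adjusted p = 0.195) to 0.71 for Gpnmb. Igf1, a growth factor gene that other cells of the forebrain also express, was at 4.95 ± 2.05 CPM in WT and 1.77 ± 0.266 in HET, and was called by DESeq2 (log2 fold change -1.48, adjusted p = 0.000200), which called 0.381% of the genes it tested, but not by limma-voom (adjusted p = 0.476). Lpl, the lipoprotein lipase gene, was the most abundant at 102.1 and 105.6 CPM. The 5 proliferation genes, which any dividing cell expresses, had a median of -0.12 with 0 called.

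Macrophages at the border of the brain express many of the members too. Of 12 markers of border and perivascular macrophages, 6 were tested and 0 were called by edgeR, and Cd163, Ms4a7, Cbr2, Siglec1, Clec10a and Ccl24 were too low to be tested. Their summed CPM was 11.6 to 18.6 in WT and 12.2 to 15.5 in HET, and their median log2 fold change was -0.72, with Pf4 and Lyve1 each at -1.004 (edgeR adjusted p = 0.911). Mrc1, the mannose receptor gene, was at 1.52, 0.839, 1.83, 2.41 and 2.59 CPM in WT embryos 5, 43, 41, 16 and 15 and at 1.70 to 1.82 in HET. Lyve1 was at 0.370 to 0.907 CPM in the 3 WT embryos with high Ttr and at 0.0883 to 0.260 in the other embryos. The latter included HET embryo 24, although its Ttr was also over 100 CPM. The part of choroid plexus RNA in the Lyve1 values and that of border macrophages in the members' values were not tested. Blood leukocytes were near the limit: 8 granulocyte and monocyte genes summed to 0.455 to 0.805 CPM and 5 lymphocyte genes to 0.043 to 0.243, and none of them was tested.

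**Figure D5:**
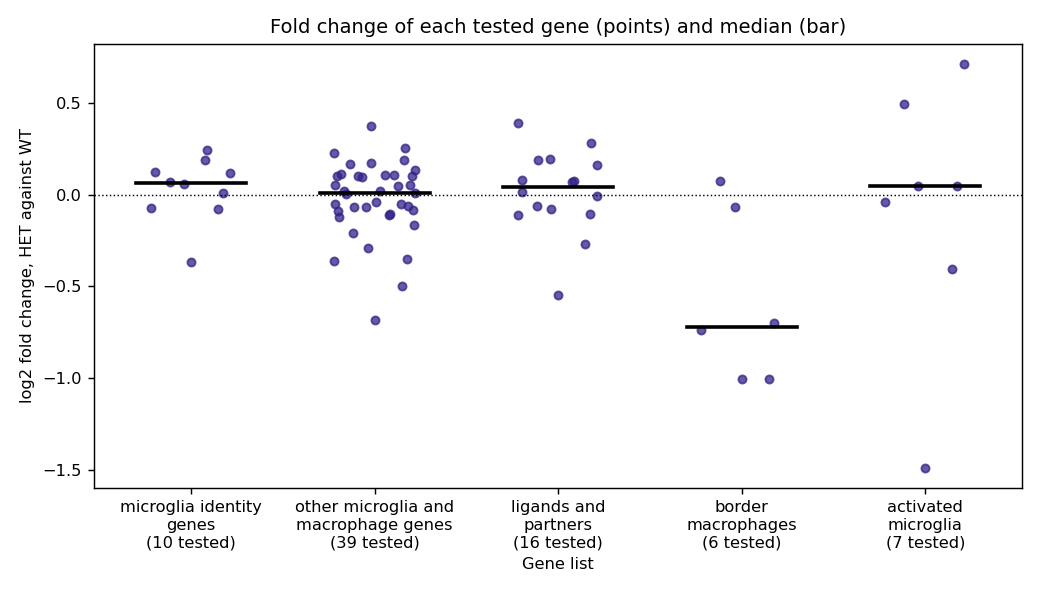
log2 fold change (HET minus WT, vertical axis) of every tested gene in 5 lists (members, other microglia and macrophage genes, ligands and partners, border macrophages, activated microglia), 1 column of points per list, with a bar at each median. The members have a median of 0.06 and the 39 other microglia and macrophage genes of 0.01, whereas the border macrophage list has a median of -0.72 over 6 genes.

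The 8 choroid plexus genes summed to 17.97 to 2884 CPM in WT and 27.5 to 529 in HET, with a median log2 fold change of -3.12, 6 unadjusted p under 0.05 and 0 called by edgeR, and the members were therefore also compared without the 4 libraries with Ttr over 100 CPM. Between the remaining WT embryos 5 and 43 and HET embryos 7, 6 and 5, 0 of 10 members were called (edgeR adjusted p = 0.999 for each, with 0.0839% of tested genes called), and 0 of 10 had an unadjusted p under 0.05, against 3.70% of tested genes. There 9 of 10 estimates lay above 0 (50.6% of all tested genes did), with a median log2 fold change of 0.21 in place of 0.06. The estimates were 0.24 for C1qa, 0.15 for C1qb, 0.18 for C1qc, 0.05 for Csf1r, 0.41 for Cx3cr1, 0.24 for P2ry12, 0.15 for Tyrobp, 0.31 for Aif1, 0.35 for Tmem119 and -0.47 for Trem2. For C1qa, C1qc, Cx3cr1, Aif1 and Tmem119 every HET embryo was above every WT embryo, which with so few embryos held for 8.44% of all tested genes. In either direction the groups did not overlap for 17.4% of all tested genes. These members correlated positively with each other over the 9 embryos, so they are not independent, and only 2 WT embryos remained.

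In the other lists edgeR called 1 gene, and DESeq2 called Aqp4 besides. Fabp7, a fatty acid binding protein of radial glia, was lower in HET (edgeR adjusted p = 0.0223) among 7 genes of astrocytes and radial glia, which summed to 1041 to 1150 CPM in WT and 666.6 to 832.1 in HET. Median log2 fold changes were 0.03 for 7 tested red blood cell genes, -0.19 for 6 endothelial, -0.14 for 5 mural, -0.30 for 6 meningeal fibroblast, 0.03 for 5 neuronal and 0.41 for 4 oligodendrocyte lineage genes, with 0 called in each by edgeR, DESeq2 or limma-voom.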

How the data were processed

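RNA was profiled from forebrain of 5 WT and 4 HET embryos. The authors made TruSeq libraries from poly(A) RNA, aligned 1 read of each pair to GRCm38.p6 with STAR 2.7.9a and counted reads per gene with featureCounts. The deposited values are raw counts per gene, without normalization. Whether counting used strand or multi-mapping reads is not given in the sources used here.

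Genes were kept by filterByExpr (minimum count 10, 17818 genes), scaled by TMM and tested with the quasi-likelihood F test of edgeR 4.0.16 (R 4.3.3) on genotype, with Benjamini-Hochberg adjustment over all tested genes and a threshold of 0.05. Log2 CPM used a prior count of 2. The script was tested on simulated data. Alternatives were DESeq2 1.42.0, limma-voom (limma 3.58.1), other scalings and filters, a choroid plexus covariate, leaving out libraries with Ttr over 100 CPM, and leaving out each embryo. The member means and correlations without WT embryo 16 and the calls of the other lists by DESeq2 and limma-voom were added after seeing the data. The precision of the group estimates rests on 5 WT and 4 HET embryos and their spread, at 42640218 to 62830060 counts per embryo. No record says that embryos came from separate litters. The p-values set the difference between groups against the spread among these 9 samples and take no account of litter.

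The members and the lists of other cell types were chosen with earlier results of these data known. Named were every member, the called genes of each list or its lowest, highest and most abundant gene, the ligands, the lineage factors, Npas3, Ttr and the 10 genes of most similar pattern, and the text says where others were named. Exon lengths and overlaps came from GENCODE M21 on GRCm38, which held 55141 of the 55401 gene IDs, and promoters from RefSeq.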

Additional observations from a re-analysis of the deposited data

Results flagged for a closer look

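In 3 of 20 groups examined (10 members in each genotype) the highest or the lowest embryo stood apart from the rest of its group by Dixon's test, where chance alone gives about 1. For C1qc, WT embryo 16 was at 8.79 CPM, above the next WT embryo at 6.87. For Csf1r, WT embryo 15 was at 19.9 CPM, above the next WT embryo at 17.0. For Aif1, HET embryo 24 was at 0.979 CPM, below the other HET embryos at 1.20 to 1.23. WT embryos 15 and 16 and HET embryo 24 are also among the 4 libraries with Ttr over 100 CPM, and the part of this in the 3 values was not tested.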

How the results depend on the processing

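Over all 17 settings 0 members were called, and the smallest adjusted p of any member under any setting was 0.655 (Cx3cr1). Of 169 values of single members under an alternative, 159 kept their direction and 10 reversed. The reversed values were P2ry12 with the choroid plexus covariate (0.0484) and without the high-Ttr libraries (0.24), Csf1r without those libraries (0.05004), and some fits that left out 1 embryo, over which C1qc ran from -0.0375 to 0.107, P2ry12 from -0.168 to 0.0194 and Tmem119 from -0.0817 to 0.167. The members that kept their sign ran from 0.0244 to 0.114 (C1qb), -0.130 to -0.0127 (Csf1r), -0.468 to -0.221 (Trem2), 0.0563 to 0.167 (Tyrobp) and 0.138 to 0.295 (Aif1) over these fits. The median log2 fold change of the members was 0.06, 0.21 without the high-Ttr libraries and 0.01 (without WT embryo 5) to 0.12 (without WT embryo 16) when 1 embryo was left out. The number of genes called in all was 25, 84 by DESeq2, 15 without the high-Ttr libraries and 14 to 23 when 1 embryo was left out, with 14 without HET embryo 6 and 16 without HET embryo 5 or 7. The median CV of the members was 12.3% to 15.4% when 1 embryo was left out. Trem2 was below a filter of 1 CPM in 4 samples and gave no value there. The cause of these changes was not tested. No paired analysis was possible because the litter of each embryo is not given in the sources used here. The WT and HET embryos shared only 1 number, 5, and it only names a sample. Depth limits Trem2 and Aif1 most, with 19 to 45 and 39 to 60 reads per embryo.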
